A study of Mus musculus with 6 samples.

Results

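The extracellular matrix genes Emilin2, Col1a2, Col4a1, Col18a1, Lama5, Lamb2 and Lamb3 were examined in long-term hematopoietic stem cells, the rare marrow cells that sustain blood production. They are 7 of the 11779 genes with a row in the count table, and each was found by its symbol. They were chosen with the HET over WT values of an earlier look at the same counts known, so their values below are a description, and nothing is supported with them. The matrix is the network of secreted proteins around cells. Collagens form its triple-helical fibres and sheets, laminins form cross-shaped trimers of an alpha, a beta and a gamma chain in basement membranes, and EMILIN proteins are glycoproteins that lie between elastin and microfibrils. In the marrow these proteins are best known as products of stromal and endothelial cells, to which stem cells attach through integrins and other receptors.

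RNA-seq libraries came from female mice aged 8 weeks. The HET group (n = 3 libraries, numbered 1, 3 and 4) had the genotype c-Mycfl/+Mx1Cre, and the WT group (n = 3, numbered 1, 3 and 4) had c-Mycfl/+. Both groups therefore carried 1 floxed allele of Myc, which encodes the growth-regulating transcription factor c-MYC. Mx1-Cre is a transgene whose interferon-responsive promoter is active in many tissues besides blood. Deletion was induced with repeated injections of poly(I:C), a double-stranded RNA analog, at 6 mg/kg. Whether the WT mice also received poly(I:C) is not stated. The sample titles mark the HET libraries as KO. Cells had been sorted as lacking lineage markers and CD48 and as carrying Sca-1, c-Kit and CD150. The labels do not say whether each library came from a separate mouse, so p-values measure only the spread between these libraries.

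Total counts ranged from 4627452 to 9886223 in HET and from 4249490 to 5600856 in WT, and HET 1 was the deepest library. Levels are given as CPM on the TMM-scaled library total, on which scale 3 counts were worth between 0.298 and 0.715 CPM. Myc measured 351 ± 49.9 CPM in HET and 472 ± 61.1 CPM in WT (SD, n = 3 each), without overlap between the groups. In the edgeR fit the HET level was 74.2% that of WT (adjusted p = 0.312), and the exact two-sided permutation test gave p = 0.1, the smallest this design allows. All 12 listed stem cell markers were detected, with summed levels of 3230.4 to 3731 CPM in HET and 3320 to 3665 CPM in WT. Of the 16 listed genes of stroma and osteoblasts, 3 had a row (Pdgfrb, Cxcl12 and Alpl), and their summed level was 25.6 to 30.2 CPM in HET and 20.9 to 26.2 CPM in WT. In bulk RNA, fewer cells of a type and less RNA per cell cannot be told apart.

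Promoter windows show where the chosen genes start. RefSeq windows on GRCm38.p6, the assembly also called mm10, run from 250 bases before to 50 bases after a start site, and 10 of them belong to the 7 genes. The motifs searched, on both strands, were the E-box CACGTG bound by MYC with MAX, the AP-1 site TGANTCA, the GC box GGGCGG and the CCAAT box CCAAT. The E-box was in 0 of the 10 windows, against 7.15% of all 32851 windows of the same length and 9.998% of the 12132 windows of genes in the count table. The AP-1 site was also in 0 of the 10, against 7.81% of all windows and 4.95% of those of genes in the table. The GC box was in 5 of the 10 windows (Emilin2, Col1a2, Col4a1, Col18a1 and Lama5), against 35.7% of all windows and 62.3% of those of genes in the table. The CCAAT box was in 3 (Col1a2, Col4a1 and Col18a1), against 37.4% and 37.5% of the same windows. No match says only that these letters are not in these windows.

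The windows below belong to the 2 genes whose HET and WT levels did not overlap, Emilin2 and Lamb2, and to Col4a1, the chosen gene of highest level per length. Capitals mark GC and CCAAT boxes on either strand, and each line runs 5′ to 3′ on the strand of its gene. The start sites of Emilin2 lie 545 bases apart, and the second one given is downstream of the first.
Emilin2 first start, chr17:71311507-71311806, minus strand: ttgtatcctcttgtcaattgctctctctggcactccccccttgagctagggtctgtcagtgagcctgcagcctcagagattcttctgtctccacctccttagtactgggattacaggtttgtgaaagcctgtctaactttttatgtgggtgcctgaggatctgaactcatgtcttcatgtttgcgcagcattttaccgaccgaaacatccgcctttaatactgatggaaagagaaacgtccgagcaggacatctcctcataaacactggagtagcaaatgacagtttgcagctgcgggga
Emilin2 second start, chr17:71310962-71311261, minus strand: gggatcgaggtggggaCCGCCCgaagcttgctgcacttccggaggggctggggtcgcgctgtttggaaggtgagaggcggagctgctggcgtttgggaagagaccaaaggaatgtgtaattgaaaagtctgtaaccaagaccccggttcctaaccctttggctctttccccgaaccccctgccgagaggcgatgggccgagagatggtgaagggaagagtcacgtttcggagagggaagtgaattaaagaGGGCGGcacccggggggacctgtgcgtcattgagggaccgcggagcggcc
Lamb2, chr9:108479612-108479911, plus strand: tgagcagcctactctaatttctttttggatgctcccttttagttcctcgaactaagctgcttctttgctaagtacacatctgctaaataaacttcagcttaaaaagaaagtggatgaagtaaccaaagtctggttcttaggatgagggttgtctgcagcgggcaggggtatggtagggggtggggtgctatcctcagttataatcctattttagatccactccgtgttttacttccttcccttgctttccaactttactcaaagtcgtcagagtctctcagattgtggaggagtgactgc
Col4a1, chr8:11312777-11313076, minus strand: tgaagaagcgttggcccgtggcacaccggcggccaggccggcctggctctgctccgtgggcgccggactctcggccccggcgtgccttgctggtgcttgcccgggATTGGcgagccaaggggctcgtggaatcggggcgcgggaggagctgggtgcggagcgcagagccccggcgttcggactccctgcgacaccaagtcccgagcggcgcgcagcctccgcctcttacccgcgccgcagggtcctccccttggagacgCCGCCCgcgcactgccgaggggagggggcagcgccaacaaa
The first Emilin2 window held none of these motifs and had 48.3% G and C, whereas the second held 2 GC boxes and had 61.0%. The Lamb2 window held none of these motifs and had 44.0%. The Col4a1 window held 1 GC box and 1 CCAAT box, and it also contains the start of Col4a2, which is read in the opposite direction and lies at base 272 of the printed window. The transcribed 5′ ends of Col4a1 and Col4a2 share 22 bases, so reads there can be assigned to either gene if counting ignored strand.

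Emilin2 was the chosen gene with the highest fold change, and its 3 HET libraries lay above its 3 WT libraries. EMILIN-2, also called basilin, is a secreted glycoprotein with an EMI domain at one end and a C1q-like domain at the other. The gene (ENSMUSG00000024053; GRCm38 chromosome 17, 71252172 to 71311978, minus strand) had 726, 589 and 586 counts in HET 1, 3 and 4, against 188, 233 and 128 counts in WT 1, 3 and 4. Scaled for library size, these were 72.0, 128 and 114 CPM in HET, against 33.9, 42.6 and 30.5 CPM in WT. HET 1 was the lowest of the HET libraries, and its level was still above that of WT 3, the highest WT library. The means were 105 ± 29.3 CPM in HET and 35.7 ± 6.24 CPM in WT (SD, n = 3 each). On the log2 scale the fold change was 1.54 ± 0.21 (SE), or 2.92-fold.

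Leaving out HET 1 gave Emilin2 a log2 fold change of 1.76, the highest of the 6 fits that left out 1 library. Leaving out HET 3 gave 1.37, the lowest. The annotation places the long non-coding RNA gene Gm26561 on the opposite strand across the whole of Emilin2. That overlap is of whole gene spans with introns, and overlap between exons was not examined. The sources used here do not state whether reads were counted by strand, so the part of Gm26561 reads in the Emilin2 counts is not known. Of the 7 chosen genes, Emilin2 was the only one past an adjusted p of 0.05 in edgeR's quasi-likelihood test, where 0.258% of all 10869 genes tested were called, 0.0368% as higher in HET and 0.221% as lower. Since the genes were chosen on this contrast, nothing is read from that count.

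Summed levels of megakaryocyte and endothelial markers did not overlap between the groups. Those of the neutrophil, macrophage and monocyte, erythroid, B cell, and T and NK cell lists did, as did the stem cell and stroma sums above. The neutrophil sum ran from 125 to 390 CPM in HET and from 57.5 to 512 CPM in WT. In each of the megakaryocyte and endothelial lists the sums overlapped once the gene that carried most of the difference was left out. Since that gene was picked by its values, nothing is read from the overlap. The 10 listed megakaryocyte genes summed to 1474.5, 1259 and 1327 CPM in HET 1, 3 and 4, against 1150.3, 1150.0 and 1178 CPM in WT 1, 3 and 4, and 0 of the 10 passed. Without Itga2b, the platelet integrin gene, the sums were 914, 895 and 936 CPM in HET, against 834, 862 and 915 CPM in WT, and the groups overlapped. Of the 10 genes, 9 had positive fold changes and 1, the abundant Mmrn1, a negative one, where 50.7% of all genes tested were positive. The list median was 0.31 on the log2 scale, against 0.004 for all genes tested.

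Of 10 listed endothelial genes 8 had a row and 5 were tested, none passed, and their summed level was 190 to 217 CPM in HET and 145 to 183 CPM in WT. Pecam1, an adhesion molecule gene, measured 158, 140 and 145 CPM in HET 1, 3 and 4, against 91.5, 117 and 120 CPM in WT 1, 3 and 4. Without it the sums were 32.1, 64.8 and 72.3 CPM in HET, against 53.8, 54.3 and 63.2 CPM in WT, and the groups overlapped. Both genes were left out after their values were seen. Stab2 and Plvap, markers of fenestrated or sinusoidal endothelium, were highest in HET 4, at 7.21 and 6.24 CPM. Flt4 was also highest in HET 4, at 13.4 CPM, and Kdr in HET 3, at 23.99 CPM. Other genes of the list went the other way. Emcn was lowest in HET 4, at 19.7 CPM, and highest in WT 3, at 30.9 CPM. Cldn5 and Sox18 were highest in WT 4, at 2.62 and 15.02 CPM. Stab2 was at 0 in HET 1 and WT 4 and Plvap at 0 in WT 4, and Cdh5 and Sox17 had no row in the count table. The part of these cell types in the Emilin2 values, and in those of the basement membrane genes below, was not tested.

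**Figure D1:**
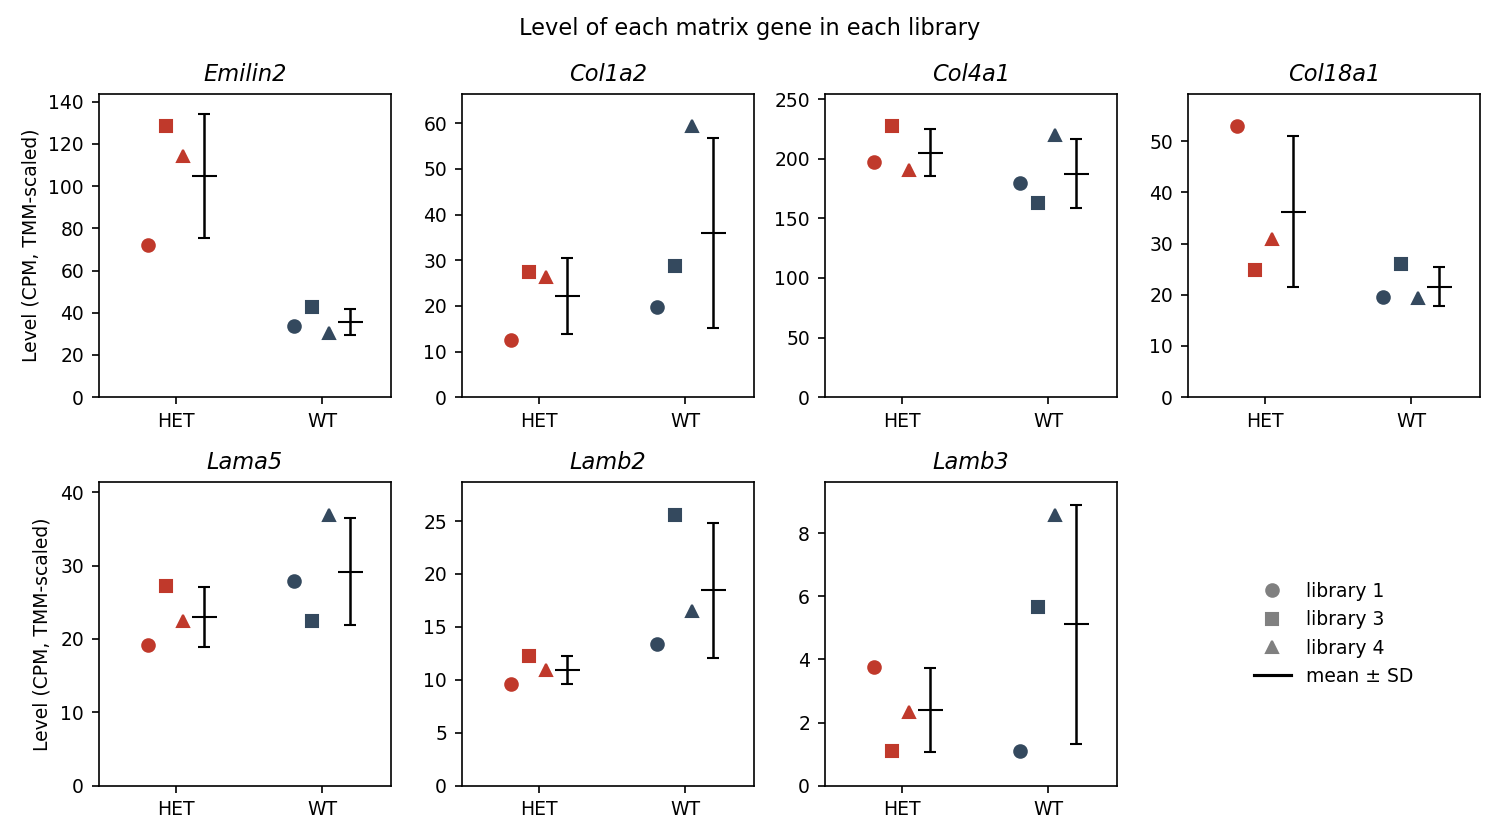
Level of each chosen gene in CPM on the TMM-scaled library total (vertical axes, each starting at 0), with 3 HET libraries left of 3 WT libraries in every panel. Symbols give the library number, and bars the mean ± SD. Emilin2 (HET above WT) and Lamb2 (HET below WT) are the genes whose groups do not overlap.

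The chosen collagen genes had fold changes of both signs. Col1a2 encodes the second chain of type I collagen, the main fibre of bone and connective tissue. The gene (ENSMUSG00000029661; chromosome 6, 4504814 to 4541544, plus strand) measured 12.6, 27.5 and 26.3 CPM in HET 1, 3 and 4, against 19.7, 28.7 and 59.4 CPM in WT 1, 3 and 4. WT 4 had the highest and HET 1 the lowest level, and the other 4 libraries of both groups lay between 19.7 and 28.7 CPM. Its log2 fold change was -0.71 ± 0.42 (SE) with all 6 libraries and -0.15 without WT 4. Col1a1, which encodes the partner chain, had no row in the count table and so could not be analysed. Cxcl12, a defining gene of marrow stroma, measured 0.397, 1.96 and 0.974 CPM in HET 1, 3 and 4, against 0.902, 0.549 and 1.91 CPM in WT 1, 3 and 4. Its part in the Col1a2 values was not tested.

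Col4a1 encodes a chain of type IV collagen, the sheet-forming collagen of basement membranes. The gene (ENSMUSG00000031502; chromosome 8, 11198423 to 11312826, minus strand) had the highest counts of the 7, from 979 to 1990 in HET and from 891 to 997 in WT. Its levels were 197, 227 and 191 CPM in HET 1, 3 and 4, against 180, 163 and 220 CPM in WT 1, 3 and 4, and the groups overlapped. Its log2 fold change was 0.13 ± 0.13 (SE), and it ranged from 0.04 to 0.26 in the fits that left out 1 library. Col4a2, which encodes the chain that joins Col4a1 in the same trimer, measured 217 ± 34.0 CPM in HET and 219 ± 2.92 CPM in WT (SD, n = 3 each; edgeR log2 fold change -0.01 ± 0.12 SE, adjusted p = 0.998). Per kilobase of exon, the Col4a1 level was 0.924, 0.791 and 0.814 times that of Col4a2 in HET 1, 3 and 4, and 0.737, 0.661 and 0.877 times in WT 1, 3 and 4. These ratios overlapped between the groups.

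Col18a1 encodes a basement membrane collagen whose cleaved end is endostatin, an inhibitor of vessel growth. The gene (ENSMUSG00000001435; chromosome 10, 77052178 to 77166548, minus strand) had 534, 114 and 159 counts in HET 1, 3 and 4, against 108, 142 and 81 counts in WT 1, 3 and 4. Its levels were 53.0, 24.9 and 31.0 CPM in HET and 19.5, 26.0 and 19.3 CPM in WT. HET 1 stood apart, and HET 3 lay within the WT range, so the groups overlapped. Its log2 fold change was 0.76 ± 0.28 (SE) with all libraries and 0.37 without HET 1. HET 1 also had the highest summed level of the 10 megakaryocyte genes given above, though not of the 9 besides Itga2b. Among the 10, HET 1 was the highest library for Gp1ba, Gp1bb, Gp5, Gp9, Itga2b and Itgb3, and the lowest for Mmrn1. The erythroid and the T and NK cell sums were also highest in HET 1, at 33.6 and 30.0 CPM. By contrast, the neutrophil sum was highest in WT 3 and the macrophage and monocyte sum in WT 1. The part of these marker genes in the Col18a1 values was not tested. The Col18a1 span, introns included, shares 8825 bases with Slc19a1, a folate transporter gene on the opposite strand. Overlap between exons was not examined, so its counts may be uncertain if strand was ignored.

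All 3 chosen laminin genes had negative fold changes, with different libraries setting the size of each. Lama5 encodes the alpha chain of the main adult basement membrane laminins. The gene (ENSMUSG00000015647; chromosome 2, 180176373 to 180225859, minus strand) measured 19.1, 27.3 and 22.4 CPM in HET 1, 3 and 4, against 28.0, 22.5 and 37.0 CPM in WT 1, 3 and 4. The groups overlapped, with WT 4 highest and HET 1 lowest. The log2 fold change was -0.35 ± 0.26 (SE), and -0.14 without WT 4.

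Lamb2 encodes a beta chain that pairs with Lama5 in several laminins. The gene (ENSMUSG00000052911; chromosome 9, 108479736 to 108490530, plus strand) had 97, 56 and 56 counts in HET 1, 3 and 4, against 74, 140 and 69 counts in WT 1, 3 and 4, or 9.62, 12.2 and 10.9 CPM in HET against 13.4, 25.6 and 16.5 CPM in WT. The HET libraries were all lower than the WT libraries, by a narrow margin between HET 3 and WT 1. The log2 fold change was -0.77 ± 0.33 (SE) and -0.45 without WT 3. Of the 7 chosen genes 1, Lamb2, had its HET libraries below its WT libraries and 1, Emilin2, had them above, where 5.64% and 4.69% of all genes tested did (10.3% in either direction). Of the 7 fold changes 3 were positive, where 50.7% of all genes tested were. Nothing is read from these counts.

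Lamb3 encodes the beta chain of a laminin typical of skin and other epithelia. The gene (ENSMUSG00000026639; chromosome 1, 193207699 to 193343878, plus strand) had few reads, with 38, 5 and 12 counts in HET 1, 3 and 4, against 6, 31 and 36 counts in WT 1, 3 and 4. These were 3.77, 1.09 and 2.34 CPM in HET and 1.08, 5.67 and 8.59 CPM in WT. WT 1 lay with the lowest HET library, and the WT values spanned 7.93-fold. HET over WT, its log2 fold change was -1.02 ± 0.73 (SE), between -1.54 without HET 1 and -0.45 without WT 4. Pooled over libraries, the HET level was 0.579 times the WT level, with an exact 95% interval of 0.400 to 0.832 that covers counting error only. Other annotated genes, 6 in all, overlap Lamb3, among them Hsd11b1 and G0s2 on the opposite strand.

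**Figure D2:**
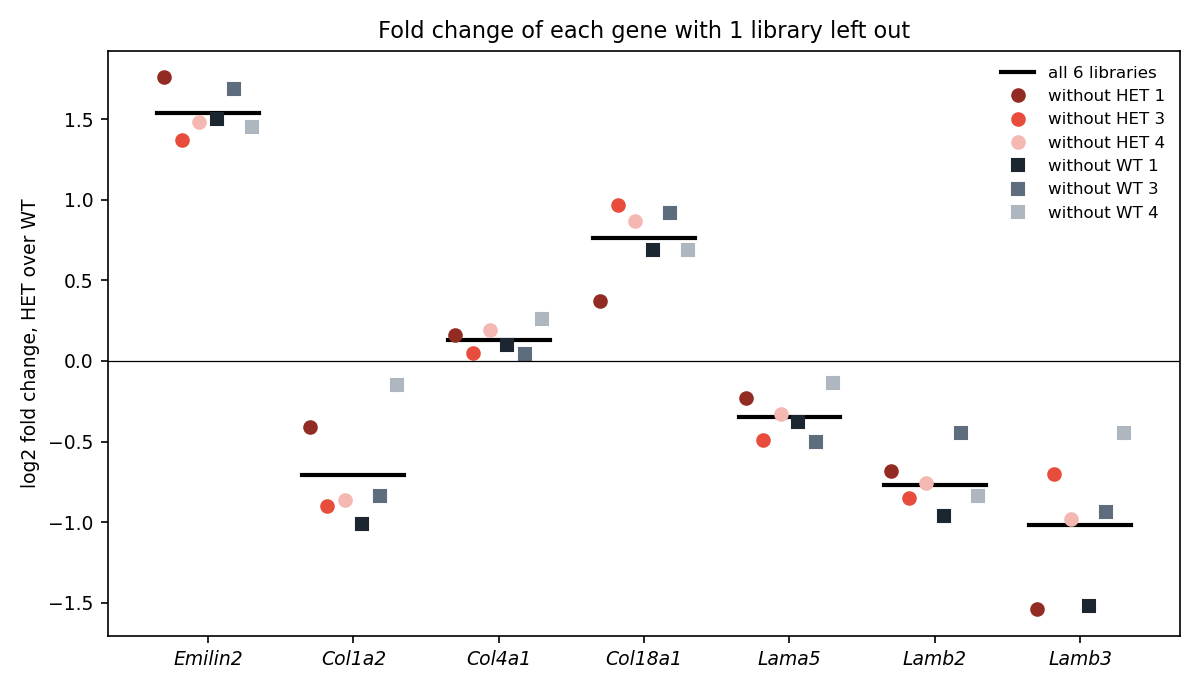
The log2 fold change of each chosen gene, HET over WT (vertical axis), with all 6 libraries (black line) and with each library left out in turn (points; circles for HET, squares for WT). Emilin2 stays between 1.37 and 1.76, while Col1a2 reaches -0.15 without WT 4 and Col18a1 0.37 without HET 1.

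The genes differed widely in level. Per kilobase of exon in GENCODE M21, Col4a1 was highest with 27.5 ± 2.62 CPM per kb in HET and 25.1 ± 3.91 CPM per kb in WT (SD, n = 3 each). Emilin2 was next with 19.1 ± 5.33 CPM per kb in HET and 6.48 ± 1.13 CPM per kb in WT. Col18a1 followed with 5.17 ± 2.11 CPM per kb in HET and 3.08 ± 0.541 CPM per kb in WT. Lama5, Lamb2 and Col1a2 lay between 1.78 and 2.01 CPM per kb in HET and between 2.56 and 3.04 CPM per kb in WT. These 3 genes did not differ from each other beyond their spread in either group, nor did Col18a1 differ from them in WT. Lamb3 was lowest with 0.363 ± 0.203 CPM per kb in HET and 0.773 ± 0.572 CPM per kb in WT. Which annotation the reads were counted on is not known here, so these levels per length are approximate.

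Of the 6 libraries, HET 4 alone held neither the highest nor the lowest value of any of the 7 genes. WT 4, the shallowest library, held the highest value of Col1a2, Lama5 and Lamb3 and the lowest of Emilin2 and Col18a1. HET 1, the deepest, held the highest value of Col18a1 and the lowest of Col1a2, Lama5 and Lamb2. The part of depth in these values was not tested.

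The close relatives of Emilin2 did not pass the test. Emilin1, which encodes the founding family member and is known in mice to restrain TGF-beta processing, measured 279 ± 16.8 CPM in HET and 266 ± 14.8 CPM in WT (SD, n = 3 each; edgeR log2 fold change 0.07 ± 0.11 SE, adjusted p = 0.995). Mmrn1, which encodes multimerin 1, a factor V carrier stored in platelets, measured 157, 203 and 216 CPM in HET 1, 3 and 4, against 216, 225 and 227 CPM in WT 1, 3 and 4. Its groups did not overlap, and its fold change of -0.22 ± 0.13 (log2, SE) did not pass (edgeR adjusted p = 0.980). Per kilobase of exon, Emilin2 was at 0.230, 0.442 and 0.348 times the level of Emilin1 in HET 1, 3 and 4, and at 0.122, 0.140 and 0.0996 times in WT 1, 3 and 4. The difference in fold change between Emilin2 and its relatives was not tested.

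Of 44 listed collagen genes 13 had a row and 7 could be tested. Of the 4 besides the chosen ones 0 passed in edgeR, and 0 had an unadjusted p under 0.05. They had log2 fold changes of -0.01 for Col4a2, -0.06 for Col11a2, -0.06 for Col16a1 and -0.73 ± 0.86 (SE) for Col20a1, with edgeR adjusted p-values of at least 0.995. Col16a1, which encodes a fibril-associated collagen, was well detected at 163 ± 10.6 CPM in HET and 171 ± 20.9 CPM in WT (SD, n = 3 each). The remaining 6 (Col4a5, Col4a6, Col5a1, Col7a1, Col14a1 and Col23a1) were removed by the filter on low counts, with at most 3.66 CPM in any library. The list median was -0.06, against 0.004 for all genes tested.

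Of 11 listed laminin genes 7 had a row and 6 could be tested. Of the 3 besides the chosen ones 0 passed in edgeR, and 0 had an unadjusted p under 0.05. Lamc1, which encodes the gamma chain found in most laminins, measured 65.8 ± 5.20 CPM in HET and 62.8 ± 14.1 CPM in WT (SD, n = 3 each; edgeR log2 fold change 0.06 ± 0.18 SE, adjusted p = 0.995). On the log2 scale Lama4, an endothelial laminin alpha chain gene, differed by 0.09 ± 0.51 (SE) and Lamc3 by -0.38 ± 1.02 (SE), and neither passed. Per kilobase of exon, Lamb2 was at 0.201, 0.233 and 0.243 times the level of Lamc1 in HET 1, 3 and 4, and at 0.255, 0.492 and 0.481 times in WT 1, 3 and 4, with no overlap. The list median of -0.36 includes the chosen genes and ran between -0.55 without HET 4 and -0.17 without WT 3, with -0.22 without WT 1, and the 3 other tested laminin genes had a median of 0.06.

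**Figure D3:**
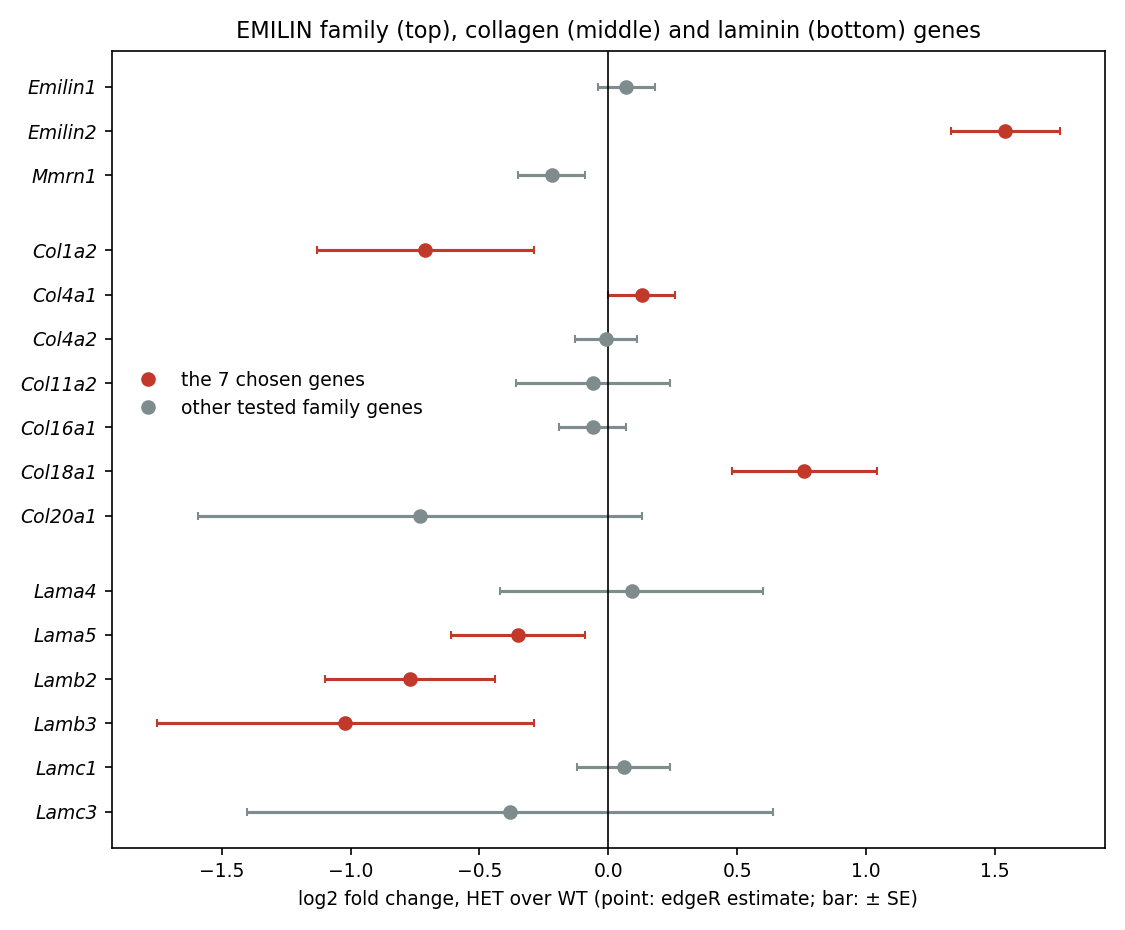
Fold changes (log2, HET over WT, horizontal axis) with standard errors for every tested gene of the EMILIN and multimerin family, the collagens and the laminins. The chosen genes are in red and lie on both sides of 0, from -1.02 for Lamb3 to 1.54 for Emilin2. The other tested genes lie between -0.73 for Col20a1 and 0.09 for Lama4.

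Other matrix genes were taken from textbook lists. Over all 10 matrix lists, 141 of 262 genes had a row, and 105 besides the chosen ones could be tested. None passed in edgeR, and 6 (5.71%) had an unadjusted p under 0.05, against 5.22% of all genes tested. DESeq2 and limma-voom also called 0 of the 105. Their median log2 fold change was -0.07, with 70 negative and 35 positive values, where 50.7% of all genes tested were positive. In 6 of them (Adamts1, Fn1, Mmp2, Mmrn1, Plaur and Tnfrsf10b) the HET libraries lay below the WT libraries, and in 1 (Adam8) above, where 5.64% and 4.69% of all genes tested did.

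The 6 genes under an unadjusted p of 0.05 all had negative fold changes and were singled out by that p. Tnfrsf10b encodes the TRAIL death receptor, whose human counterparts EMILIN-2 is known to bind. It measured 10.8, 17.2 and 10.5 CPM in HET 1, 3 and 4, against 29.8, 19.2 and 31.2 CPM in WT 1, 3 and 4, without overlap (edgeR log2 fold change -1.06 ± 0.30 SE, adjusted p = 0.297). Plaur encodes the urokinase receptor, which focuses matrix breakdown at the cell surface. It measured 60.4, 23.3 and 20.9 CPM in HET 1, 3 and 4, against 159, 97.1 and 115 CPM in WT 1, 3 and 4. HET 1 lay between the other HET libraries and the WT libraries, and the log2 fold change of -1.79 ± 0.49 (SE) did not pass (edgeR adjusted p = 0.722). Without HET 1 it did, at -2.49 (adjusted p = 1.83e-07).

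Adamts1, which encodes a protease that cuts proteoglycans, measured 8.04 ± 1.16 CPM in HET and 16.9 ± 3.78 CPM in WT (SD, n = 3 each; edgeR log2 fold change -1.07 ± 0.35 SE, adjusted p = 0.471). Mmp2, the gelatinase gene whose product degrades type IV collagen, measured 7.12 ± 2.70 CPM in HET and 13.8 ± 2.78 CPM in WT (edgeR adjusted p = 0.836). Both genes showed no overlap between HET and WT libraries. Matn4, a matrilin gene, differed by -1.29 ± 0.54 (log2, SE) and Ltbp4, which encodes a latent TGF-beta binding protein, by -0.90 ± 0.39 (log2, SE), with overlapping libraries. Fn1, the fibronectin gene, measured 12.2, 14.4 and 11.3 CPM in HET 1, 3 and 4, against 20.7, 15.0 and 16.2 CPM in WT 1, 3 and 4 (edgeR adjusted p = 0.995).

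The machinery that makes collagen had no gene past the threshold. Of 34 listed genes for folding, modification and cross-linking, 21 were tested and 0 passed, with 16 negative and 5 positive values and a median of -0.10. Fold changes reached -1.13 ± 0.80 (log2, SE) for Loxl1, a lysyl oxidase family gene with 0.872 to 2.08 CPM in HET and 1.10 to 6.68 CPM in WT. Among genes with a mean log2 CPM of 2 or more, those of smallest p were Tgm2, Bmp1, P4ha1 and Lepre1, all at an edgeR adjusted p of 0.995. Tgm2, the tissue transglutaminase gene, measured 440.0 ± 47.6 CPM in HET and 483 ± 99.6 CPM in WT (SD, n = 3 each). P4ha1, which encodes a catalytic subunit of prolyl hydroxylase, measured 35.2 ± 4.75 CPM in HET and 40.4 ± 8.70 CPM in WT. The 24 tested proteases and inhibitors had a median of -0.09, the 12 proteoglycans -0.02, the 9 other basement membrane genes -0.17 and the 18 other matrix glycoproteins -0.35, each with 0 genes called. The basement membrane median ran between -0.43 without HET 4 and 0.10 without HET 1, and was -0.04 without HET 3. That of the glycoproteins was -0.15 without WT 4 and -0.20 without HET 3. Agrn, the basement membrane proteoglycan agrin, measured 32.3 ± 5.33 CPM in HET and 28.5 ± 2.97 CPM in WT (SD, n = 3 each). Sdc1, a syndecan gene, measured 3.17, 3.71 and 2.34 CPM in HET 1, 3 and 4, against 5.23, 11.5 and 3.34 CPM in WT 1, 3 and 4 (edgeR adjusted p = 0.971), and WT 4 lay among the HET libraries. Tgfbi, a collagen-binding glycoprotein gene, measured 74.4 CPM in HET 1 and 36.6 to 44.1 CPM in the other 5 libraries of both groups.

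Of 8 tested receptors for collagen and laminin 0 passed, and the median was -0.03. Itgb1, the shared beta chain of these integrins, measured 317 ± 56.0 CPM in HET and 304 ± 14.4 CPM in WT (SD, n = 3 each; edgeR log2 fold change 0.06 ± 0.13 SE). Itga3, a laminin-binding alpha chain gene, measured 5.95, 14.2 and 11.1 CPM in HET 1, 3 and 4, against 19.7, 12.4 and 15.5 CPM in WT 1, 3 and 4, with overlap (edgeR adjusted p = 0.980). Among EMILIN partners, the integrin gene Itga4 measured 253 ± 6.98 CPM in HET and 229 ± 51.4 CPM in WT (SD, n = 3 each). Itga10, a collagen-binding integrin alpha chain gene, was removed by the filter on low counts and was singled out after its values were seen. It had 31, 17 and 9 counts in HET 1, 3 and 4, against 2, 0 and 0 counts in WT 1, 3 and 4. Itga10 counts pooled by group and scaled for library size gave a ratio of 21.9 (exact 95% interval 5.79 to 185, counting error only). Without a filter its edgeR adjusted p was 0.484. Every gene in the count table exceeded 1 CPM in at least 2 libraries, and Itga10 did so only in HET. A high ratio was favoured by that cut, so nothing is read from it. Other matrix genes removed by the filter also had groups without overlap. Col4a6 lay above in HET (27 pooled counts, against 6 in WT). Below in HET were Col7a1 (12 against 43), Vcan (3 against 27) and Plau (12 against 25). Each of these exceeded 1 CPM in at least 2 libraries of the group where it was higher, and so had a row. Lack of overlap was favoured by that cut, so nothing is read from it.

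**Figure D4:**
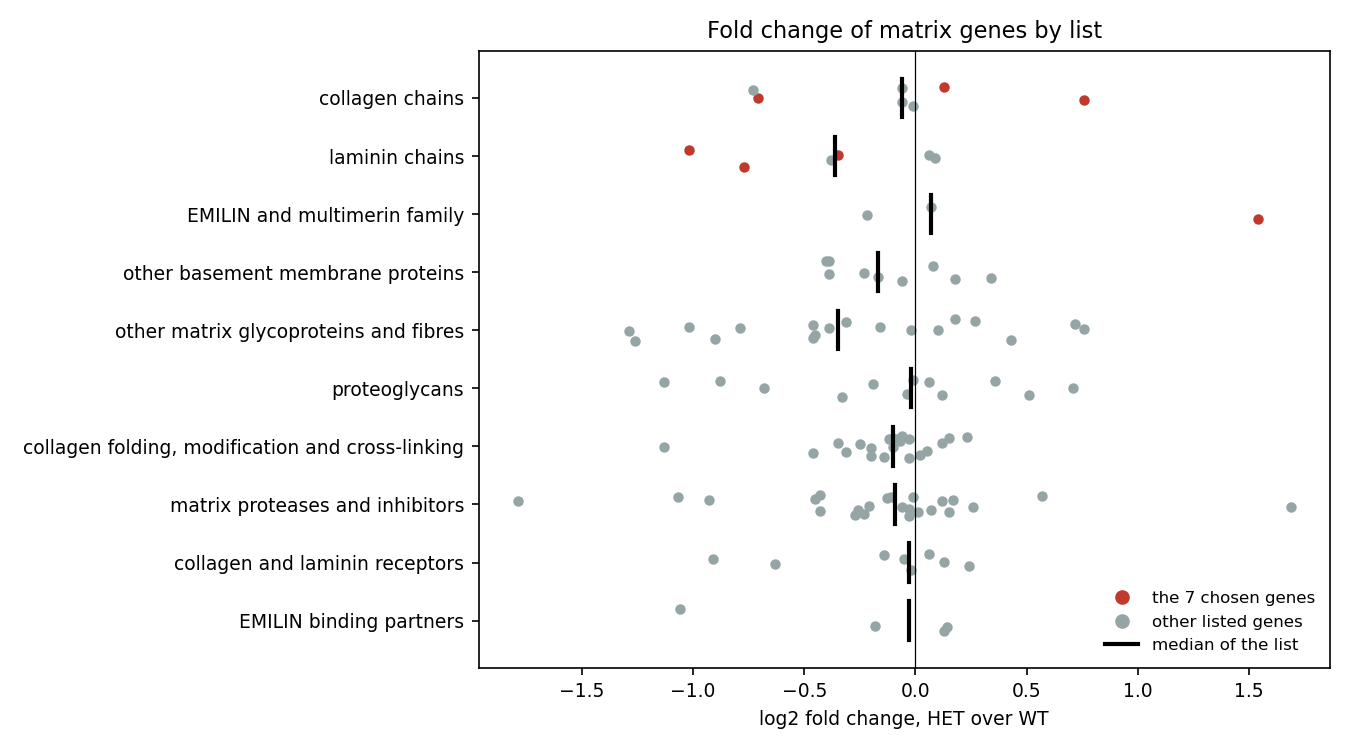
Fold changes (log2, HET over WT, horizontal axis) of the tested genes of the 10 matrix lists, with the chosen genes in red and a black line at the median of each list. Medians lie between -0.36 (laminins) and 0.07 (EMILIN and multimerin family), and the lowest value is that of Plaur at -1.79. Vertical scatter within a list carries no value.

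The pattern of Emilin2 over the 6 libraries was set against that of 9806 tested genes with a mean log2 CPM of 2 or more. Likeness was the root mean square difference between log2 levels centred on the mean of each gene, and it is a description over 6 libraries that includes the group difference. The nearest genes were Cd48 (0.28), Syt3 (0.32), Zfp760 (0.32), Amn1 (0.35) and Nnt (0.37). Picking them by this likeness favoured a difference between HET and WT, so nothing is read from their fold changes, calls or lack of overlap. Counts per library were low for Cd48 (7 to 46), Syt3 (4 to 44), Zfp760 (17 to 64) and Nnt (7 to 40), so their patterns are uncertain. Cd48 encodes the surface protein whose absence was part of the sort. It measured 3.67, 8.29 and 8.96 CPM in HET 1, 3 and 4, against 3.25, 2.74 and 1.67 CPM in WT 1, 3 and 4, without overlap (edgeR log2 fold change 1.41 ± 0.61 SE, adjusted p = 0.849). The part of CD48-positive cells in the Emilin2 values was not tested.

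Amn1 was the only one of these 5 to pass with all 6 libraries (edgeR log2 fold change 1.46 ± 0.28 SE, adjusted p = 0.0203), and it did not pass without WT 1 (0.0873), WT 3 (0.147), HET 3 (0.118) or HET 4 (0.128), nor with limma-voom (0.0662). Of the chosen genes, Col18a1 was at 0.71 (rank 1104 of 9806), Col4a1 at 0.77 (rank 2450) and Lamb3 at 1.51 (rank 9742), and Emilin1 was at 0.79 (rank 2962).

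**Figure D5:**
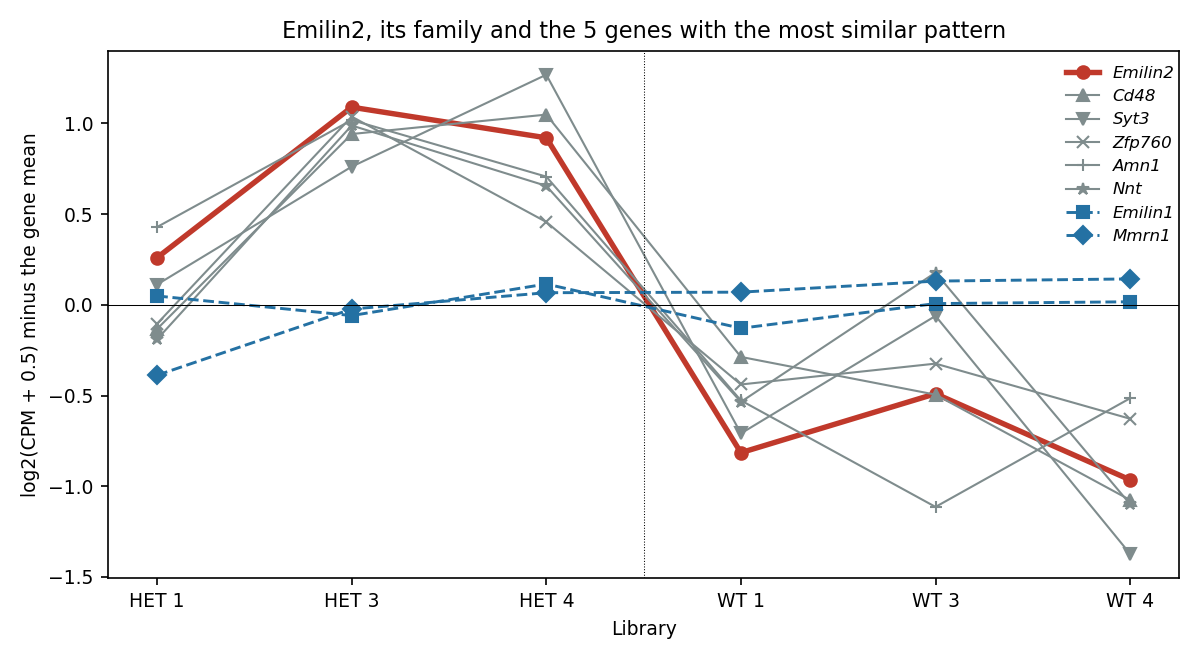
Centred levels (log2 of CPM + 0.5, minus the mean of the gene, vertical axis) in the 3 HET and the 3 WT libraries, for Emilin2 (red), its relatives Emilin1 and Mmrn1 (dashed) and the 5 nearest genes (grey). HET 1 is the lowest HET library of Emilin2 and of each of the 5, and also of Mmrn1, while Emilin1 stays between -0.129 and 0.115.

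The nearest tested gene on either side of each chosen gene was also compared, leaving out genes that overlap it, such as Col4a2. Of 14 neighbours 1 passed, where 0.258% of all genes tested did. It was Irs2, an insulin receptor substrate gene 190 kb from Col4a1, with 65.9 ± 10.9 CPM in HET and 124 ± 30.6 CPM in WT (SD, n = 3 each; edgeR log2 fold change -0.92 ± 0.18 SE, adjusted p = 0.0336). Irs2 did not pass without WT 1 (0.281), WT 4 (0.211) or HET 4 (0.285), nor with limma-voom (0.0644). Beside Emilin2, the lipid phosphatase gene Lpin2 at 2.35 kb differed by 0.24 ± 0.13 (log2, SE, edgeR adjusted p = 0.979) and the chromatin gene Smchd1 at 32.5 kb by 0.30 ± 0.14 (log2, SE, adjusted p = 0.950). Beside Lamb2, the deubiquitinase gene Usp19 at 0.072 kb differed by -0.04 ± 0.11 (log2, SE), and beside Lama5 the proteasome receptor gene Adrm1 at 0.087 kb differed by -0.06 ± 0.24 (log2, SE).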

How the data were processed

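Raw read counts of 11779 genes in 6 libraries were deposited by the authors as whole numbers. FastQC, STAR 2.5.2b, edgeR, limma and mm10 are named, with no role, in the submitters' processing notes. No source used here gives the counter, annotation, strand setting or kit, since the protocol fields describe another study. Every gene in the table exceeded 1 CPM in at least 2 libraries.

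Counts were fitted with edgeR 4.0.16 in R 4.3.3 (filterByExpr, which left 10869 genes, TMM scaling, robust two-sided quasi-likelihood F test, group only, Benjamini-Hochberg threshold 0.05). Standard errors came from the F statistic. The filter kept 7 of the 7 chosen genes. Intervals and floors cover counting error only. Alternatives used limma 3.58.1, DESeq2 1.42.0, other scalings and filters, the library number as a block and 1 library left out. Positions and exonic lengths came from GENCODE M21 on GRCm38, promoters from RefSeq, and 5 list genes were matched by an older symbol.

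The chosen genes and lists were set with earlier results of these data known. The named genes were the chosen ones, every measured EMILIN family, collagen and laminin gene, for each list the genes of smallest p (at most 4, mean log2 CPM 2 or more), the 5 genes most like Emilin2 (pseudocount 0.5, predicted genes left out), the nearest tested neighbours that overlap no chosen gene, marker genes and Myc. Itga10, Adam8, Fn1, Loxl1, Vcan and Plau were chosen after their values were seen.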

Additional observations from a re-analysis of the deposited data

How the results depend on the processing

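Emilin2 was the only chosen gene past the threshold in each of the 13 alternatives. Its adjusted p was 0.0461 in edgeR without WT 1, near the threshold, and 0.0222 with limma-voom. Since the genes were chosen on this contrast, nothing is read from these calls. Its log2 fold changes ran from 1.37 to 1.76 in the fits that left out 1 library and from 1.44 to 1.56 in the other alternatives. The sign of each chosen gene stayed the same in every alternative in which it was fitted (Lamb3 could not be fitted under the stricter filter). In the fits that left out 1 library the ranges were -1.01 to -0.15 for Col1a2, 0.04 to 0.26 for Col4a1, 0.37 to 0.97 for Col18a1, -0.50 to -0.14 for Lama5, -0.96 to -0.45 for Lamb2, -1.54 to -0.45 for Lamb3 and -0.50 to -0.32 for Myc. With limma-voom, Lamb3 was at -0.52. The number of genes called over all genes was 28, but 59 with DESeq2, 49 with the library number as a block, and 10 to 68 when 1 library was left out, lowest without HET 4 (10) and WT 1 (11) and highest without HET 1. Matrix genes called besides the chosen ones numbered 0 to 1 when 1 library was left out, and 1 with the library number as a block. In both cases the gene was Plaur, without HET 1 and with the block (log2 fold change -1.94, adjusted p = 4.19e-05). With the block Irs2 did not pass (adjusted p = 0.0608). The causes were not tested. The library numbers pair no samples by the labels, and the correlations of same-numbered libraries were 0.112, -0.044 and 0.072, and not every library correlated best with its own number. Lamb3 had 5 to 38 counts a library. With the block the laminin median was -0.50.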
